A study of Mus musculus with 4 samples.

Results

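The genes described here are 35 mouse genes that encode proteins with a bromodomain, among them Atad2, the target of the knockdown, and its paralog Atad2b. They were listed by name, and the list was chosen with earlier results of these data known. Of the 35, 32 could be tested among the 10331 genes tested, out of 20698 genes with a usable transcript. A bromodomain is a small protein module that binds acetylated lysines, above all on the tails of histones. Proteins that carry one therefore meet acetylated, transcribed chromatin, where some write further marks, some move or evict nucleosomes, some recruit the transcription machinery and some repress. In ES cells, chromatin is highly acetylated and dynamic, and several of these proteins are known to be required for self-renewal or for exit from pluripotency. Atad2 joins a bromodomain to an AAA ATPase, a ring-forming motor that remodels protein complexes.

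RNA was sequenced from 46C mouse ES cells in which a TAP tag (6His, Flag and Ha) had been knocked in at the C-terminus of Atad2, and every library came from these tagged cells. The tagged line is a single clone, so that all 4 libraries share its background. The cells were grown with LIF on gelatin and transfected with a scrambled siRNA (si-ctrl, libraries 1 and 2) or with an siRNA against Atad2 (si-Atad2, libraries 1 and 2). The methods name 2 different Atad2 siRNAs, and which of them served for which library was not worked out. The labels number the libraries of a condition as replicates, whereas a figure legend of the study says that every RNA was sequenced more than once, so libraries 1 and 2, those of si-ctrl above all, may be repeat sequencing of the same RNA. No source used here ties them to separate transfections, and the p-values measure only the spread between these libraries, which may be technical.

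Levels are the authors' FPKM, that is fragments scaled to the length of the transcript and to the size of the library, summed here over the transcripts of a gene. Pair 1 stands for si-Atad2 1 over si-ctrl 1 and pair 2 for si-Atad2 2 over si-ctrl 2, as the authors ran the software on each pair separately. Ratios are log2 of (FPKM + 1) in si-Atad2 over (FPKM + 1) in si-ctrl, a scale that understates the changes of low genes. The tables hold no counts, so the depth of the libraries is unknown. The median ratio of all tested genes was near 0 in both pairs (0.00071 in pair 1 and -0.016 in pair 2). Genes of high GC content had lower ratios in pair 1 and slightly higher ones in pair 2 (Spearman's rho over genes of -0.28 and 0.085, given as a description), and the si-ctrl libraries differed from each other along GC content (rho of -0.55). All 8 ES cell markers were at 67.0 FPKM or more on average, the highest being Dppa5a at 939.9 FPKM, and their summed level ran from 3055 to 3282 FPKM over the 4 libraries. The summed level of 6 fibroblast markers, which would show feeder cells, ran from 7.18 to 8.51 FPKM (highest Thy1, 6.31 FPKM), of 5 endoderm markers from 2.43 to 2.90 FPKM (highest Gata4, 1.12 FPKM) and of 4 mesoderm markers from 3.52 to 4.22 FPKM (highest Eomes, 2.11 FPKM). Of 4 neural markers, 3 were listed, with a sum of 47.2 to 61.8 FPKM of which Tubb3 made most, at 51.8 FPKM on average. The sums of the ES cell markers were lower in both si-Atad2 libraries than in both si-ctrl libraries, and their part in the results below was not tested. Gene by gene the markers were mixed, with mean ratios above 0 for Sox2 (0.043) and Tdgf1 (0.088) and below 0 for the rest. None of the 8 passed the test used below (limma, lowest adjusted p = 0.104, for Nanog). In RNA of whole cultures, fewer cells of a type and less RNA per cell cannot be told apart.

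Apart from Atad2 itself, 4 bromodomain genes changed. Brd7, Taf1 and Phip rose and Brpf3 fell, each by less than Atad2 itself fell. The other 27 tested members, Atad2b included, did not pass the test. In all, 5 of 32 members were called by limma (adjusted p under 0.05, Benjamini-Hochberg over all tested genes), that is 15.6%, beside 2.23% of all tested genes. Of these, 3 were higher in si-Atad2 (beside 1.7% of all genes) and 2 were lower (beside 0.523%). Without Atad2, 4 of 31 members (12.9%) were called. The median ratio of the 32 members was -0.037, and that of all tested genes was -0.0086. These shares are descriptions only, since the members were chosen with earlier results of these data known. They do not show that bromodomain genes changed more often than other genes. The 4 calls other than that of Atad2 were lost when either control library was left out, as given below.

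**Figure D1:**
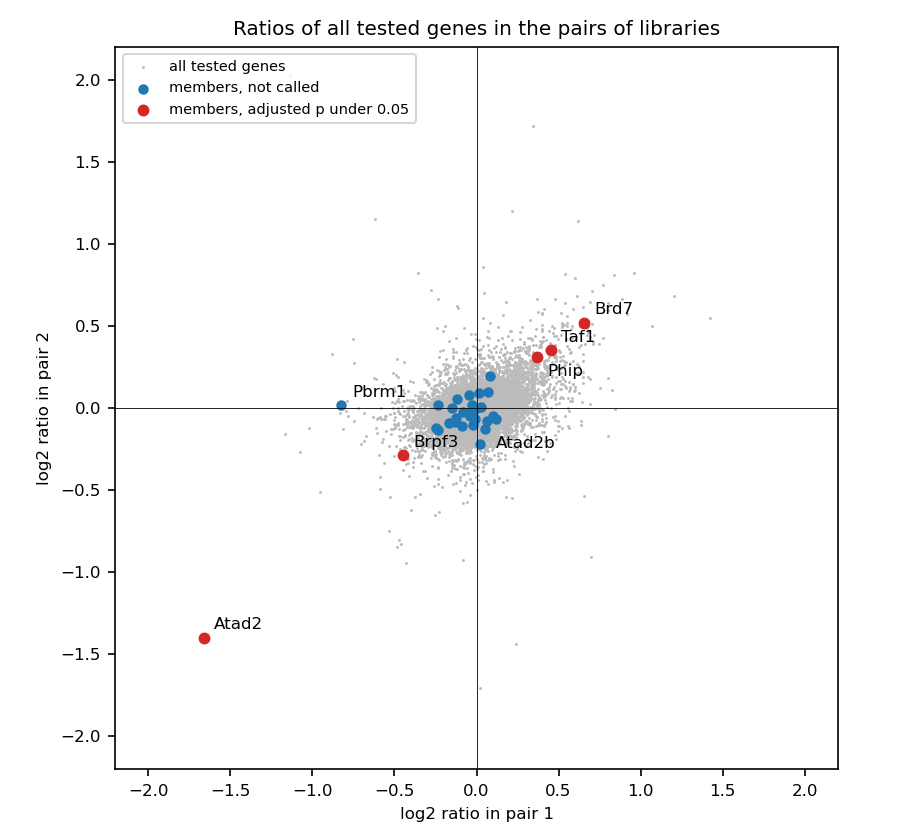
Log2 ratio of every tested gene in pair 1 (x axis) and pair 2 (y axis), with the tested members as larger points, red where the adjusted p by limma was under 0.05. Atad2 lies far from the cloud at -1.66 and -1.40, Brd7, Taf1 and Phip lie at its upper right edge, Brpf3 lies at its lower left edge, and Pbrm1 is low in pair 1 only.

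The regions around the start sites of the 4 other genes that changed are shown first, since these are the genes the comparison turns on. The RefSeq windows of GRCm38.p6 run from 250 bases before to 50 bases after the start and are written 5′ to 3′ on the strand of the gene. The Brd7 window is chr8:88362123-88362422 on the minus strand, that of Taf1 is chrX:101532485-101532784 on the plus strand, that of Phip is chr9:82975440-82975739 on the minus strand and that of Brpf3 is chr17:28800876-28801175 on the plus strand. Capitals mark matches, on either strand, to the motifs named below them.
Brd7: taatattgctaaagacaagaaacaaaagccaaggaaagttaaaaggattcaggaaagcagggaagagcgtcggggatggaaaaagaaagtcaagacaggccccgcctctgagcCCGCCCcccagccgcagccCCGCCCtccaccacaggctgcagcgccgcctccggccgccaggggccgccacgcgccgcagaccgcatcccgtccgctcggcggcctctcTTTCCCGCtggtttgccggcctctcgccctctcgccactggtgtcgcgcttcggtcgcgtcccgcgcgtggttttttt
Taf1: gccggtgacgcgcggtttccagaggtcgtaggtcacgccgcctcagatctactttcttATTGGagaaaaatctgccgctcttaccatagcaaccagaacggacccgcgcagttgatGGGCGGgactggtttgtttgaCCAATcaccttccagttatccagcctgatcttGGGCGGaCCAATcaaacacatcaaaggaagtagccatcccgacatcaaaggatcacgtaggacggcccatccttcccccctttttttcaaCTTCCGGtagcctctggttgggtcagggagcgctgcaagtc
Phip: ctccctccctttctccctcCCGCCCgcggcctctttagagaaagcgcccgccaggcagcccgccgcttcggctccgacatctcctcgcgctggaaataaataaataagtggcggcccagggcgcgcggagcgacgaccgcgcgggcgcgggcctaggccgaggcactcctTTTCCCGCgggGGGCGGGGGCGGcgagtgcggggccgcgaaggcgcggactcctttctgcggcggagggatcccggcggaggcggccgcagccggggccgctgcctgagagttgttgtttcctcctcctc
Brpf3: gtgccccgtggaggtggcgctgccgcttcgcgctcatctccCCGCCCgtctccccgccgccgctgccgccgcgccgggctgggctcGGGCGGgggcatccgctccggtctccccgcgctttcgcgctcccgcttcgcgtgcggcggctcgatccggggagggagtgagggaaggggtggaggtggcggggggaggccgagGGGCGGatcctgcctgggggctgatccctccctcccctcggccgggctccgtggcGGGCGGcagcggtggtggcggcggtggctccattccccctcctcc
The letters searched were CCAAT for the box bound by nuclear factor Y, TATAAA for the core promoter element of that name, GGGCGG for the GC box bound by Sp and KLF factors, CCGGAAG for the binding site of ETS factors, TTTCCCGC and TTTGGCGC for E2F factors, AAGATGG for the factor YY1, CACGTG for the E-box bound by MYC and TGACGTCA for the cyclic AMP response element. All 4 windows held the GC box, which 35.7% of the 32851 windows in the table and 27 of the 41 windows of members held. Brd7, at -28 from the start site, and Phip, at -80, held TTTCCCGC, found in 1.07% of all windows and in no other window of a member. In the Phip window 2 GC boxes abut each other and make 1 run of capitals. Taf1 held the nuclear factor Y letters 3 times, found in 37.4% of all windows, and 1 ETS match, found in 8.86%. None of the 4 windows held the letters of the core promoter element (13.6% of all windows), the second E2F form (0.514%), YY1 (6.34%), the E-box (7.15%) or the cyclic AMP response element (1.79%). CG dinucleotides numbered 31 in the window of Brd7, 18 in that of Taf1, 41 in that of Phip and 40 in that of Brpf3, beside a median of 29 over the windows of members and of 7 over all windows. The letters GGGCGG and TTTCCCGC themselves contain CG, and their shares among windows of similar CG content were not worked out. Windows were matched for 29 of the 35 members, some with several start sites. Atad2, Ash1l, Baz1a, Brd8, Cecr2 and Trim33 had no window, so their motifs are unknown here. A match of letters is only a description of the sequence.

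In the si-ctrl libraries, 33 of the 35 members were at 1 FPKM or more, 23 of them at 10 FPKM or more, and 2 were lower (Trim66, and Brd8 by its 1 named transcript). The median si-ctrl level of the members was 18.3 FPKM, beside 9.75 FPKM for all tested genes. Trim28 stood far above the rest at 641.1 and 636.0 FPKM in the si-ctrl libraries. Next came Baz2a (76.4 and 72.9 FPKM) and Brd2 (70.6 and 71.1 FPKM), whose ranges did not overlap, then Smarca4 (52.2 and 50.0 FPKM) and Kat2a (45.1 and 44.0 FPKM). Brwd1 followed (36.7 and 37.0 FPKM), then Bptf (36.6 and 35.3 FPKM) and Atad2 (34.1 and 36.0 FPKM), whose ranges overlapped and which put Atad2 at rank 8 of the list. Its paralog Atad2b was at rank 22 with 13.1 and 13.3 FPKM. At the low end lay Ash1l (3.32 and 3.11 FPKM), Smarca2 (1.04 and 1.11 FPKM) and Trim66 (0.530 and 0.497 FPKM). The si-ctrl libraries came from separately normalised tables, and over the tested members their levels differed by a median of 0.031 and by at most 0.21 on the log2 scale (Kmt2a).

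**Figure D2:**
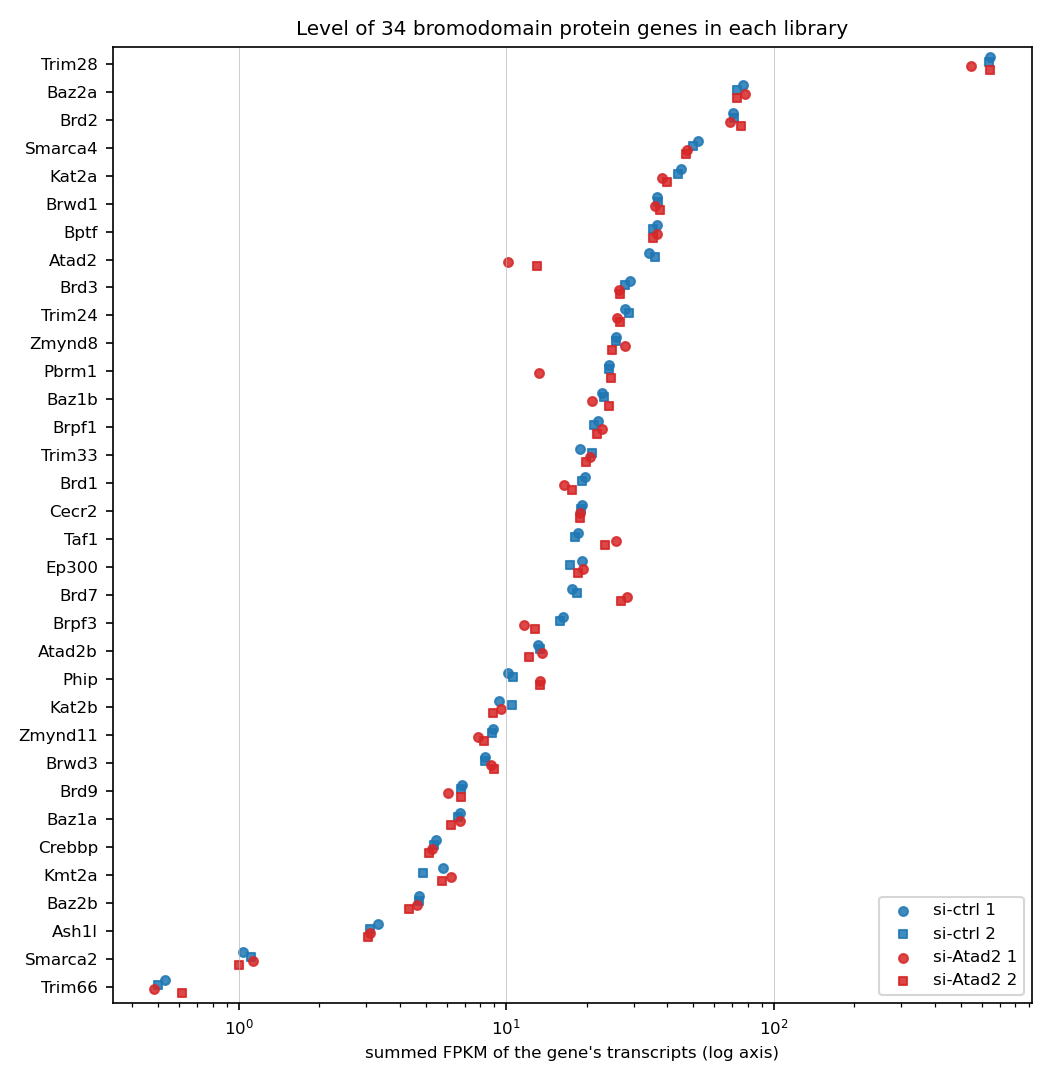
Summed FPKM (x axis, log scale) of 34 members in each of the 4 libraries, ordered by their mean level in si-ctrl; Brd8 is left out since most transcripts of its locus have no gene name. Trim28 stands highest near 641.1 FPKM, and the libraries of a gene mostly lie close together. They are widest apart for Atad2, Pbrm1, Brd7, Taf1, Brpf3 and Phip, with Kmt2a and Trim66 not far behind Phip.

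Among the AAA ATPases, Atad2 fell and Atad2b did not pass the test. Atad2 (chr15:58094044-58135082 on the minus strand of GRCm38) was at 34.1 FPKM in si-ctrl 1, 36.0 in si-ctrl 2, 10.1 in si-Atad2 1 and 13.0 in si-Atad2 2. Both si-Atad2 libraries were thus far below both si-ctrl libraries, with 29.6% of the control level left in pair 1 and 36.2% in pair 2. The mean ratio was -1.53 (SE 0.076, adjusted p = 1.41e-06 by limma with Benjamini-Hochberg adjustment). Of its 3 transcripts, the one of 5683 bases made 96.2% of the level and went from 32.8 FPKM (95% interval of the authors 32.1 to 33.5) in the first control and 35.2 (34.5 to 36.0) in si-ctrl 2 to 9.41 (9.03 to 9.79) in si-Atad2 1 and 12.2 (11.8 to 12.7) in si-Atad2 2. The transcript of 3749 bases lay between 0.69 and 0.88 FPKM in the 4 libraries and that of 2368 bases at 0.42 FPKM or lower.

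Atad2b (chr12:4917353-5047394 on the plus strand) was at 13.1 and 13.3 FPKM in si-ctrl and at 13.6 and 12.1 FPKM in si-Atad2. The si-Atad2 values lie on both sides of the si-ctrl values. Its pair ratios were 0.052 and -0.13, which average to -0.037 (SE 0.074, adjusted p = 0.853 by limma). The transcript of 8099 bases, which made 63.7% of the level, was at 7.95 and 8.78 FPKM in si-ctrl and 8.83 and 7.65 in si-Atad2, and the one of 1343 bases at 5.12, 4.53, 4.79 and 4.46 FPKM in the same order. Neither transcript moved one way in both pairs beyond the authors' intervals.

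The SWI/SNF remodellers use ATP to slide and evict nucleosomes, and 5 members belong to them. Of these, Brd7, a subunit of the PBAF form, rose, and the other 4 did not pass the test. Brd7 (chr8:88331039-88362194, minus strand) was at 17.6 FPKM in si-ctrl 1, 18.4 in si-ctrl 2, 28.3 in si-Atad2 1 and 26.8 in si-Atad2 2. The groups do not overlap, and the gap between them exceeds the difference within either group. Its mean ratio was 0.59 (SE 0.069, adjusted p = 0.000909 by limma), a 1.50-fold rise. Nearly all of the level (97.5%) came from the transcript of 2370 bases, which rose from 16.9 (interval 16.2 to 17.7) to 27.8 FPKM (26.8 to 28.7) in pair 1 and from 17.9 (17.1 to 18.7) to 26.2 FPKM (25.3 to 27.1) in pair 2. The other transcript, of 1904 bases, stayed between 0.50 and 0.66 FPKM.

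Pbrm1, another subunit of PBAF with several bromodomains, was low in 1 library only. Its named transcripts summed to 24.2 FPKM in si-ctrl 1, 24.3 in si-ctrl 2, 13.3 in si-Atad2 1 and 24.6 in si-Atad2 2. The ratio was -0.82 in pair 1 and 0.018 in pair 2, and the mean of -0.40 (SE 0.14) did not pass (adjusted p = 0.164 by limma). In si-Atad2 1, the transcript of 8117 bases was at 6.12 FPKM (interval 5.79 to 6.45) against 10.6 to 10.8 FPKM in the other 3 libraries, and that of 4063 bases at 3.68 FPKM (3.25 to 4.11) against 7.80 to 8.74 FPKM. A further 2 transcripts of the locus have no gene name, since they could not be told from an overlapping gene. Without si-Atad2 2, Pbrm1 was called, as were 18.9% of all tested genes, and without si-Atad2 1 its ratio was 0.021.

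The catalytic subunit Smarca4, also called Brg1, was at 52.2 and 50.0 FPKM in si-ctrl and at 47.5 and 47.1 in si-Atad2. The si-Atad2 values are lower without overlap, and the difference of -0.11 (SE 0.062) did not pass (adjusted p = 0.431 by limma). Its relative Smarca2, or Brm, was low in these cells, at 1.04, 1.11, 1.13 and 1.00 FPKM with the controls named first and library 1 before library 2, an order kept below. Brd9, a subunit of the non-canonical BAF form, was at 6.83, 6.76, 6.07 and 6.75 FPKM, with si-Atad2 1 the lowest. Neither Smarca2 (-0.0068) nor Brd9 (-0.074) passed the test.

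**Figure D3:**
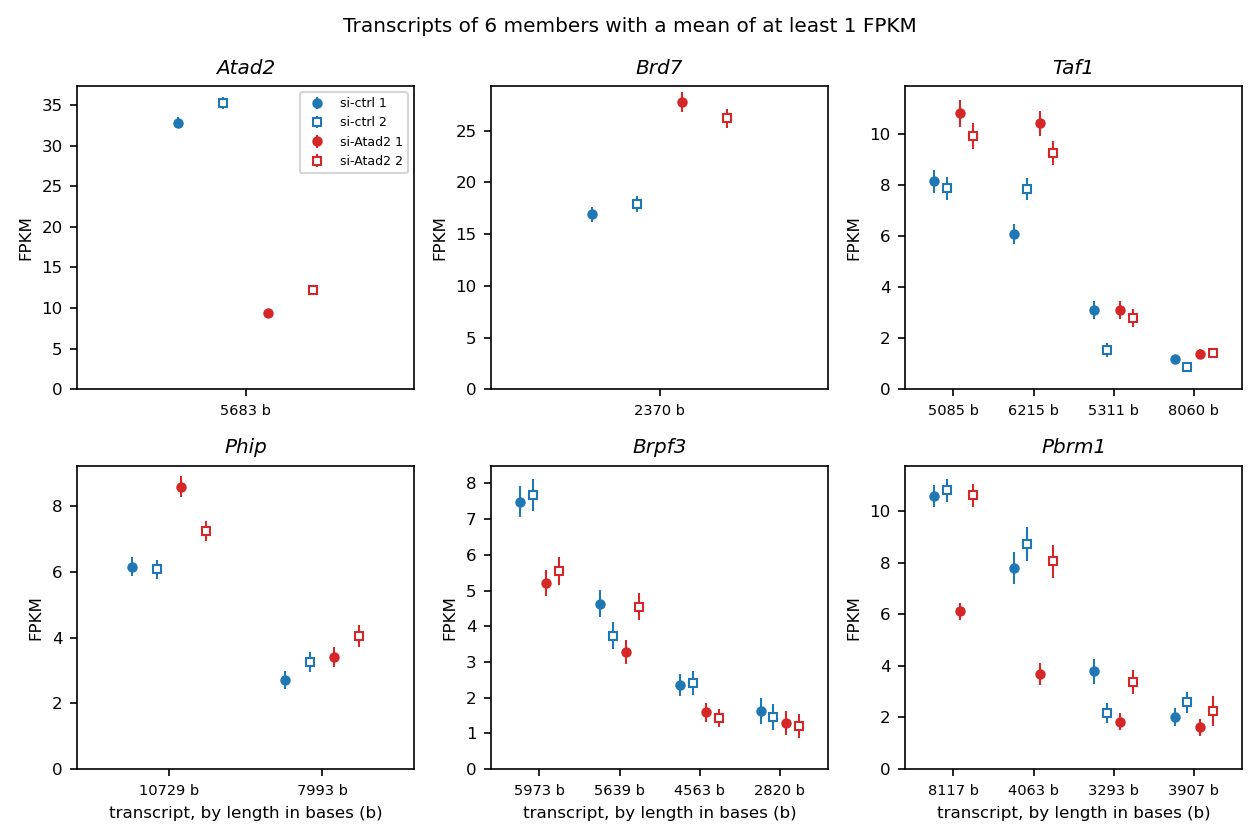
FPKM (y axis) of those transcripts of 6 members that reached 1 FPKM on average, by transcript length (x axis), in si-ctrl (blue) and si-Atad2 (red) libraries 1 (filled) and 2 (open); bars are the authors' 95% intervals. Brd7 was at 16.9 and 17.9 FPKM in si-ctrl and 27.8 and 26.2 FPKM in si-Atad2, whereas Pbrm1 was low in si-Atad2 1 only.

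Taf1 is the largest subunit of TFIID, the factor that binds core promoters, and it carries a pair of bromodomains. Taf1 (chrX:101532734-101601789, plus strand) was at 18.5 FPKM in si-ctrl 1, 18.1 in si-ctrl 2, 25.7 in si-Atad2 1 and 23.4 in si-Atad2 2. Both si-Atad2 libraries lay above both si-ctrl libraries. The ratios were 0.45 and 0.35, with a mean of 0.40 (SE 0.068, adjusted p = 0.00794 by limma), that is a 1.32-fold rise. The transcript of 5085 bases went from 8.14 and 7.87 FPKM to 10.8 and 9.92, and that of 6215 bases from 6.09 and 7.84 FPKM to 10.4 and 9.26. The transcript of 5311 bases, at 3.11, 1.54, 3.10 and 2.80 FPKM, differed as much between the si-ctrl libraries as between the groups. With the highest transcript alone, Taf1 did not pass (0.34, adjusted p = 0.125 by limma).

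The histone acetyltransferases Kat2a, Kat2b, Ep300 and Crebbp did not pass the test. Kat2a, the Gcn5 acetyltransferase of the SAGA and ATAC co-activators, was at 45.1 and 44.0 FPKM in si-ctrl and at 38.1 and 39.9 in si-Atad2. The groups do not overlap, with a ratio of -0.19 (SE 0.064, adjusted p = 0.163 by limma). Its close relative Kat2b, or Pcaf, was at 9.40, 10.5, 9.55 and 8.90 FPKM, which differ as much within as between the groups. Ep300, a broad co-activator that marks enhancers, was at 19.2, 17.3, 19.4 and 18.5 FPKM. Its relative Crebbp was lower throughout, at 5.45, 5.35, 5.26 and 5.15 FPKM. Their ratios were -0.099 for Kat2b, 0.053 for Ep300 and -0.045 for Crebbp.

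Phip is one of 3 members in which WD repeats precede the bromodomains, and it serves as a substrate receptor of a cullin ubiquitin ligase. Phip (chr9:82866159-82975516, minus strand) was at 10.2 FPKM in si-ctrl 1, 10.6 in si-ctrl 2, 13.4 in si-Atad2 1 and 13.4 in si-Atad2 2. Both si-Atad2 libraries were above both si-ctrl libraries. The mean ratio was 0.34 (SE 0.071, adjusted p = 0.0289 by limma), a 1.26-fold rise. The transcript of 10729 bases rose from 6.16 to 8.58 FPKM in pair 1 and from 6.07 to 7.24 in pair 2, and that of 7993 bases went from 2.70 to 3.40 and from 3.26 to 4.05 FPKM. Phip had the lowest GC content of the tested members (39.0%, the mean over its annotated transcripts). With the GC trend removed from each pair it no longer passed (0.30, adjusted p = 0.0713 by limma), as with the highest transcript alone (0.32, adjusted p = 0.180).

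The relatives of Phip did not pass the test. Brwd1 was at 36.7 and 37.0 FPKM in si-ctrl and at 36.0 and 37.5 in si-Atad2, and the groups overlap. Brwd3 was at 8.34, 8.35, 8.80 and 9.00 FPKM, with both si-Atad2 libraries the higher. Their ratios were -0.0046 and 0.083 (adjusted p = 0.981 and 0.629 by limma).

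The Brpf proteins and Brd1 are scaffolds that hold together acetyltransferase complexes of the MYST family, and Brd8 is a subunit of another such complex, TIP60. Brpf3 fell. Brpf3 (chr17:28801090-28839949, plus strand) was at 16.3 FPKM in si-ctrl 1, 15.9 in si-ctrl 2, 11.6 in si-Atad2 1 and 12.8 in si-Atad2 2. Both si-Atad2 libraries were below both si-ctrl libraries, with 71.6% of the control level in pair 1 and 80.7% in pair 2. The mean ratio was -0.37 (SE 0.073, adjusted p = 0.0210 by limma). The transcript of 5973 bases was at 7.48 and 7.67 FPKM in si-ctrl and 5.20 and 5.54 in si-Atad2, and that of 4563 bases at 2.35 and 2.41 against 1.59 and 1.43. The transcript of 5639 bases fell in pair 1 (4.63 to 3.28 FPKM) and was higher in pair 2 (3.74 to 4.55 FPKM). With the highest transcript alone Brpf3 did not pass (-0.43, adjusted p = 0.0669 by limma). Its GC content of 56.5% was among the highest, and with the GC trend removed it passed (-0.36, adjusted p = 0.0430 by limma).

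Brd1 was at 19.7 and 19.2 FPKM in si-ctrl and at 16.4 and 17.6 in si-Atad2. The groups do not overlap, and the ratio of -0.18 (SE 0.070) did not pass (adjusted p = 0.208 by limma). Brpf1 was not tested, since the authors' software marked all 7 of its transcripts as failed in si-Atad2 1. Its listed transcripts summed to 21.9 and 21.3 FPKM in si-ctrl and 22.7 and 21.8 in si-Atad2. For Brd8, which shares its locus with Cdc23 and Kif20a, only 1 transcript could be named, listed at 1.08 FPKM in si-ctrl 1, 0 in si-ctrl 2, 0.66 in si-Atad2 1 and 0.47 in si-Atad2 2. These values cannot stand for the level of the gene, and Brd8 was not tested.

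The 4 genes that changed apart from Atad2 depended on both control libraries in the test. Without si-ctrl 1, or without si-ctrl 2, Atad2 was the only member called and 10 or 8 genes were called in all. The ratios of the 4 genes then ran from -0.38 to -0.35 for Brpf3, from 0.56 to 0.62 for Brd7, from 0.39 to 0.42 for Taf1 and from 0.31 to 0.37 for Phip, so that their sizes moved little. Without si-Atad2 1 the 5 calls were the same in number, and 743 genes (7.19%) were called in all. Without si-Atad2 2 there were 9, which added Brd1, Kat2a, Pbrm1 and Trim28, but 1949 genes (18.9%) were then called in all.

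**Figure D4:**
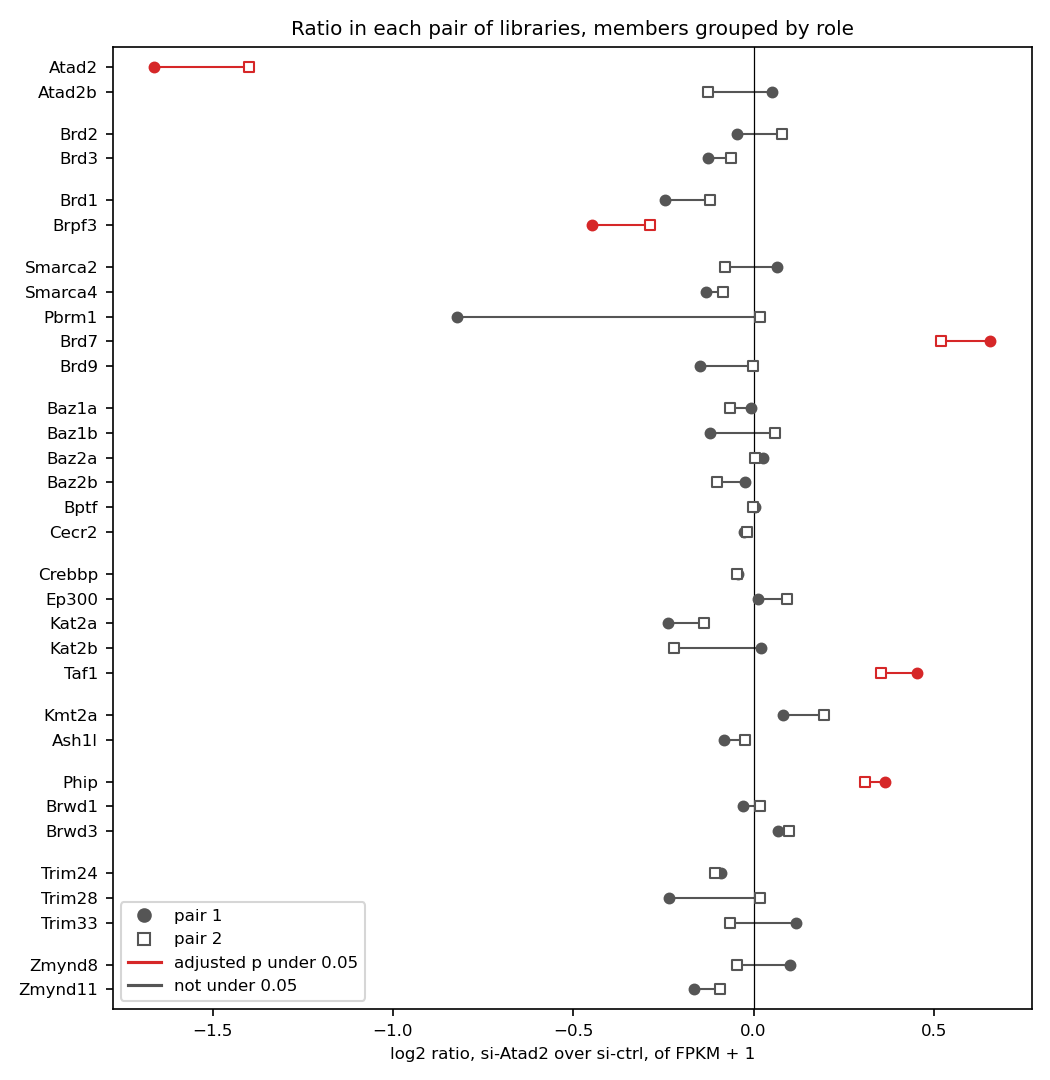
Log2 ratio of si-Atad2 over si-ctrl (x axis) of the 32 tested members in pair 1 (circles) and pair 2 (squares), grouped by role, red where the adjusted p by limma was under 0.05. Atad2, Brpf3, Brd7, Taf1 and Phip have both pairs on 1 side of 0, as do many uncalled members, among them Brd1, Kat2a and Brwd3. The line of Pbrm1 runs from -0.82 to 0.018.

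Among the partners of the ISWI motors no member passed the test. These 6 members are Baz1a and Baz1b, which join the ATPase Smarca5 in nucleosome-spacing complexes, Baz2a, which silences ribosomal RNA genes, its relative Baz2b, Bptf, the largest subunit of NURF, and Cecr2. Their mean ratios ran from -0.062 (Baz2b) to 0.014 (Baz2a). Bptf was at 36.6 and 35.3 FPKM in si-ctrl and 36.7 and 35.3 in si-Atad2. Cecr2 was at 19.3, 19.0, 18.9 and 18.8 FPKM and Baz2a at 76.4, 72.9, 77.8 and 73.1 FPKM. In all 3 the groups were close, and only for Cecr2 did they not overlap. Baz1a was at 6.73, 6.57, 6.69 and 6.24 FPKM, Baz1b at 22.9, 23.2, 21.0 and 24.2 FPKM and Baz2b at 4.71, 4.72, 4.62 and 4.33 FPKM. Of these, Baz2b was lower in both si-Atad2 libraries, by less than the test could call.

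The BET proteins Brd2 and Brd3 bind acetylated histones through a pair of bromodomains and recruit the elongation machinery. Brd2 was at 70.6 and 71.1 FPKM in si-ctrl and 68.4 and 75.2 in si-Atad2, on both sides of the controls. Brd3 was at 28.9 and 27.8 FPKM in si-ctrl and 26.4 and 26.5 in si-Atad2, lower without overlap. Neither passed (0.017 and -0.095, adjusted p = 0.927 and 0.514 by limma).

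The TRIM members pair a bromodomain with a PHD finger, and Trim28 is the co-repressor by which zinc finger proteins silence retroviral elements in ES cells. Trim28 was at 641.1 FPKM in si-ctrl 1, 636.0 in si-ctrl 2, 544.7 in si-Atad2 1 and 644.0 in si-Atad2 2. As for Pbrm1, si-Atad2 1 alone was low, with ratios of -0.23 and 0.018 (mean -0.11, adjusted p = 0.458 by limma). Trim24, a co-regulator of nuclear receptors, was at 27.7, 28.7, 26.0 and 26.6 FPKM and was lower in both si-Atad2 libraries (-0.099, adjusted p = 0.494). Trim33, which acts with Smad proteins, was at 18.8, 20.9, 20.5 and 19.9 FPKM, and the groups overlap. Trim66 lay under the minimum of 1 FPKM, at 0.530, 0.497, 0.484 and 0.615 FPKM, and was not tested.

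The remaining members write or read methylation. Kmt2a, which methylates histone H3 at active promoters, was at 5.81 and 4.88 FPKM in si-ctrl and 6.20 and 5.73 in si-Atad2, where the si-ctrl libraries differed more than the groups. Ash1l, another methyltransferase, was at 3.32, 3.11, 3.08 and 3.04 FPKM. Zmynd8, a reader tied to transcriptional repression, was at 25.7 and 25.7 FPKM in si-ctrl and 27.7 and 24.9 in si-Atad2. Zmynd11, a reader of methylated histone H3 variants in gene bodies, was at 8.94 and 8.84 FPKM in si-ctrl and 7.87 and 8.23 in si-Atad2, without overlap. None of the 4 passed, with ratios of 0.14 for Kmt2a, -0.053 for Ash1l, 0.028 for Zmynd8 and -0.13 for Zmynd11.

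Across the tested members, 17 of 32 (53.1%) had both si-Atad2 libraries on the same side of both si-ctrl libraries, 4 higher and 13 lower, beside 49.1% of all tested genes. Of these 17, 12 did not pass the test. Their levels came from 2 separately normalised tables. The 49.1% counts both directions together and was not split, so 4 higher against 13 lower has no background here. Summed over all transcripts of 200 bases or more, FPKM was 324048 and 322690 in si-ctrl and 316149 and 314943 in si-Atad2. With every library scaled to the same such sum (TPM), the median ratio of the members then tested was -0.0012 instead of -0.037. Of the 27 members that did not pass, 26 had a mean ratio within 0.2 of 0 on the log2 scale, the exception being Pbrm1. At an unadjusted p under 0.05 lay 8 of 32 members (25%), beside 16.2% of all tested genes, namely the 5 called ones and Kat2a, Pbrm1 and Brd1. The si-Atad2 libraries differed from each other by a median of 0.082 on the log2 scale over the tested members, against 0.031 for the si-ctrl libraries, with Pbrm1 the widest at 0.85.

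The genes that work with the members were near the background. The 6 partner lists hold 60 genes, of which 48 were tested. Of these 48, limma called 0, beside 2.23% of all tested genes, and 10 (20.8%) were at an unadjusted p under 0.05, beside 16.2% of all tested genes. Of the other bromodomain genes, 2 of 5 were tested. Brdt, known from the testis, was the highest, at 2.31 and 2.34 FPKM in si-ctrl and 3.71 and 2.49 in si-Atad2 (0.29), a difference seen mainly in pair 1. The SWI/SNF partners (16 of 19 tested) had a median ratio of -0.074, with Dpf2 lowest and Smarce1 highest (0.16). Dpf2 was at 36.2 and 35.2 FPKM in si-ctrl, 25.1 in si-Atad2 1 and 36.1 in si-Atad2 2, low in 1 library as was Pbrm1.

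The MYST partners (5 of 6 tested) had a median ratio of -0.081, with Kat7, the acetyltransferase that Brd1 and Brpf3 bind, the lowest. Kat7 was at 59.3 and 59.5 FPKM in si-ctrl, 42.4 in si-Atad2 1 and 59.5 in si-Atad2 2, so that its ratios were -0.48 and 0.0016. The highest of the list was Kat6b (0.12). In the ISWI partners (6 of 7 tested) the median was -0.010, from Smarca1 (-0.11) to Pole3 (0.076). In the SAGA, ATAC and TIP60 partners (10 of 12 tested) it was -0.0052, and the range ran from Sgf29 (-0.10) to Trrap (0.26). Trrap, the large scaffold shared by several acetyltransferase complexes, was at 17.1 and 16.7 FPKM in si-ctrl and 20.3 and 20.5 in si-Atad2, with the lowest adjusted p of the lists (0.0721 by limma). Of 11 histone deacetylases, which remove the marks that bromodomains bind, 9 were tested, with a median of -0.036, from Hdac4 (-0.17) to Hdac8 (0.11). Hdac4 went in opposite directions, at -0.76 in pair 1 and 0.42 in pair 2.

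**Figure D5:**
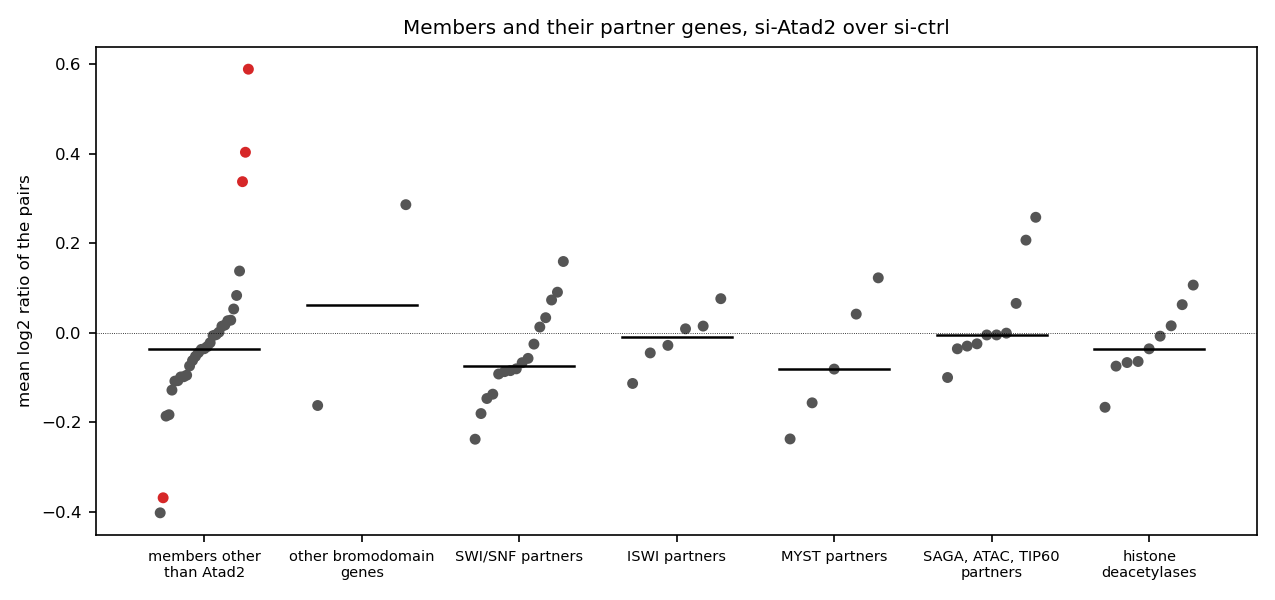
Mean log2 ratio of the 2 pairs (y axis) for the 31 tested members other than Atad2 and for each of the 6 partner lists (x axis), 1 point a gene, red where the adjusted p by limma was under 0.05, with the median as a bar. The only red points are Brd7, Taf1, Phip and Brpf3, and the partner genes lie between -0.24 and 0.29.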

How the data were processed

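RNA-seq of 46C ES cells was analysed in 4 libraries, si-ctrl 1 and 2 and si-Atad2 1 and 2, grouped by the sample labels. Per the labels, libraries were made with the TruSeq RNA protocol and sequenced as paired ends of 50 cycles, and the submitters' processing notes name TopHat, Cuffdiff and the mouse build mm9. The loci in the tables, however, match GRCm38. Cuffdiff had been run separately on the libraries numbered 1 and on those numbered 2, and the authors deposited FPKM values with 95% confidence intervals for 59120 transcripts, each entered as its own gene. The authors' deposited differential tables hold fold changes, p-values and q-values of 1 library against 1 library and were not used. Use of the strand in counting is not given in the sources used here, so values of overlapping genes are uncertain.

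The deposited transcripts carry no gene names. They were named from GENCODE vM21, 14840 by a length within 3 bases of an annotated transcript inside their locus. A further 29636 took the only coding gene that met both of the following limits. At least 0.5 of its span lay in the locus, and its exons totalled at least 0.5 of the transcript's length. The other 14644 stayed unnamed. Transcripts of 200 bases or more with status OK in all 4 libraries were summed per gene. Genes with a mean of at least 1 FPKM were tested with limma (lmFit on the 2 within-pair log2 ratios with a pseudocount of 1 FPKM, eBayes with a trend). Benjamini-Hochberg adjustment was over all genes, with a threshold of 0.05. The code was first run on simulated data in which genes of similar level had the same normal spread. That run cannot give the share of false calls in these data, where single libraries can stand apart. Promoter windows came from RefSeq on GRCm38.p6. The alternatives are those listed in the closing section, and naming by the only coding gene that touches the locus was chosen after seeing the data. Named genes are all members, the called genes of each partner list or, where none was called, its highest and lowest ratio, and the highest marker of each list. The lowest gene of 1 partner list is not reported here. The members and lists were chosen with earlier results of these data known. The model was fitted with limma 3.58.1 in R 4.3.3, and tables and plots were made with pandas 2.3.3, numpy 2.4.6 and matplotlib 3.10.9 in Python 3.11.15.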

Additional observations from a re-analysis of the deposited data

How the results depend on the processing

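The mean ratio of Atad2 stayed between -1.70 and -1.28 under all 17 alternatives with a test and passed in 16; with no minimum level its value of -1.53 no longer passed (limma, adjusted p = 0.328), and limma then called 0 of 17955 genes and 0 members, with 1798 genes at an unadjusted p under 0.05. Atad2b was not called under any alternative, and its value ran from -0.13 to 0.052 when a library or pair was left out. The 230 called genes became 13 with transcripts of all lengths (1 member), 102 with the highest transcript only (2 members), 31 of 3636 with naming by length only (1 member), 152 with the GC trend removed together with the replicate block, and 8 to 1949 when a library was left out (1 to 9 members), namely 10 and 8 without si-ctrl 1 and 2 and 743 and 1949 without si-Atad2 1 and 2. Same-numbered libraries did not deviate together (r of -0.030 over genes), so that the pairing rests on the authors' tables, and with no replicate block 143 genes and the same count of 5 members were called. With a pseudocount of 5 FPKM 307 genes were called, and with TPM 237, of which 203 were higher (176 of 230 in the reported test).

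The members' median of -0.037 became -0.027 with a pseudocount of 5 FPKM, -0.0012 with TPM, -0.029 with median of ratios, -0.051 with naming by length only, -0.059 with the GC trend removed, and -0.038 to -0.028 with a library or pair left out. Brd7 lost its call under 4 of 16 alternatives, Taf1 and Brpf3 under 5 and Phip under 7, all without a change of sign: each lost it with no minimum, with transcripts of all lengths and without either si-ctrl library, and Taf1, Brpf3 and Phip with the highest transcript only. Phip also lost it with the GC trend removed and with eBayes without a trend (adjusted p of 0.0507). Some uncalled members changed sign. With the GC trend removed these were Bptf (-0.013) and Trim33 (-0.0059). With TPM these were Smarca2 (0.017), Baz1b (0.0025), Cecr2 (0.011) and Brwd1 (0.030). With the highest transcript only these were Brd2 (-0.015), Baz2a (-0.0081) and Crebbp (0.0055). With median of ratios these were Smarca2 (0.00079) and Brwd1 (0.0030). With naming by length only these were Smarca4 (0.065), Bptf (-0.023), Kat2b (0.15) and Brwd1 (0.11). With a library or pair left out, values ran for Brd2 from -0.050 to 0.084, Smarca2 from -0.078 to 0.065, Pbrm1 from -0.83 to 0.021, Baz1a from -0.080 to 0.0082, Baz1b from -0.13 to 0.066, Baz2a from -0.029 to 0.058, Bptf from -0.027 to 0.029, Ep300 from -0.019 to 0.12, Kat2b from -0.22 to 0.022, Brwd1 from -0.033 to 0.024, Trim28 from -0.23 to 0.018, Trim33 from -0.066 to 0.12 and Zmynd8 from -0.046 to 0.10. The cause of these shifts was not tested. In the fits that leave out 1 library the lone sample is assumed to vary like the other group, and a pair alone allows no test.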
